A study of Drosophila melanogaster with 7 samples.

Results

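CG13043, CG13063, CG13042, CG13041 and CG13060 are 5 uncharacterised protein-coding genes that lie in a run of neighbours on chromosome arm 3L of Drosophila melanogaster. They are 5 of the 17697 named genes in each deposited table, and they were matched by their exact names. They had been picked because their reads were lower in the Hop.CA libraries than in the control libraries of this same experiment. Their difference between the groups is therefore a description here, and no p-value is attached to it.

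Trachea of larvae in the third instar was profiled by poly(A) RNA sequencing in 7 libraries, 4 control and 3 Hop.CA. The labels give the same strain to all 7 libraries, controls included (btl-Gal4 with UAS-GFP, and UAS-Hop.CA with tub-Gal80ts), although the titles call the controls wildtype. btl-Gal4 drives UAS transgenes in the tracheal cells, and Gal80ts is a temperature-sensitive form of the Gal4 repressor, placed here under a ubiquitous tubulin promoter. Control larvae grew at 18 degrees C, and Hop.CA larvae grew at 18 degrees C until the L2 stage and then spent 18 hours at 29 degrees C. The effect of Hop.CA and that of the temperature step therefore cannot be told apart in these samples. The labels used here give no age within the third instar for either group. A difference in time since the molt therefore cannot be told apart from them either. Each title carries a biological replicate number, and how many animals went into a library is not said.

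Hopscotch (hop) is the Janus kinase of the fly, which passes signals from the receptor Domeless to the transcription factor Stat92E, and Hop.CA is labelled as its ectopic expression. Larval tracheae are epithelial tubes lined by a cuticle of chitin and protein that is laid down and shed at every molt, so genes of cuticle proteins are expressed in this tissue in waves tied to the molting cycle. The deposited tables and the annotation give the 5 genes no other name and no function, and none is assumed here.

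Total gene reads per library ranged from 16795748 to 20455268. The hop gene itself rose from 41.5 ± 2.65 CPM (gene reads scaled to library size, mean ± SD, n = 4) to 1459.6 ± 126 CPM (n = 3), or log2 5.14 ± 0.103 (SE) with an adjusted p of 2.69e-07 (quasi-likelihood test of edgeR, Benjamini-Hochberg over 9457 genes). All 9 markers of trachea were detected, and their summed level ran from 11310 to 12120 CPM in controls and from 16230 to 16960 CPM in Hop.CA. The chitin deacetylase genes serp and verm, which were higher (log2 0.74 and 0.58), make up that difference, as the other 7 markers summed to 2198 to 2893 CPM in controls and 2389 to 2567 CPM in Hop.CA. Of these 7, trh, a transcription factor gene of tracheal fate, was higher (log2 0.48), and btl, the gene of the FGF receptor that marks tracheal cells, was lower (log2 -0.63). The call for btl was lost without Hop.CA replicate 1. The count of higher tracheal markers, 3 with serp, verm and trh, became 2 without control replicates 3 or 4 or any 1 Hop.CA library. The mean levels of kkv, Gasp and uif were lower in Hop.CA (253 against 324, 708 against 840 and 171 against 262 CPM) without passing the test. Of the 9 markers, 4 were lower and 3 higher at an unadjusted p under 0.05 in edgeR, for which the share over all genes is not given. DESeq2 called 3 lower and 3 higher, beside 1684 and 1614 of 13419 genes. Without control replicate 1 edgeR called 4 lower, beside 1654 of 9365 genes. Markers of other tissues moved as well, beside 15.1% of all tested genes called lower and 16.4% called higher, and none of these lists had a marker at 0 reads. Of 12 muscle markers 7 were lower, led by Act87E, Mlc2 and Mlc1 (log2 -1.81, -1.70 and -1.42), and 0 higher, with sums of 9803 to 20570 CPM in controls and 3280 to 10060 CPM in Hop.CA. Of 12 imaginal disc markers 5 were lower, led by nub, vg and ap (log2 -1.64, -1.54 and -1.53), and 0 higher, with sums of 221 to 367 CPM against 179.5 to 212 CPM. Of 6 ring gland markers 2 were lower (phm and Akh) and 0 higher, with sums of 18.7 to 21.1 CPM in 3 controls, 106.2 CPM in control replicate 2 and 14.8 to 15.4 CPM in Hop.CA. The most abundant fat body markers were Lsp1gamma, Lsp1beta and Lsp2, and the most abundant hemocyte markers Hml, Pxn and Sr-CI. No marker of the 8 for fat body (sums 1882 to 6548 against 2352 to 4506 CPM) or of the 7 for hemocytes (448 to 540 against 401 to 689 CPM) passed edgeR's adjusted test, an unadjusted p of 0.05, DESeq2 or limma-voom. With single libraries left out, 1 fat body marker was called lower without control replicate 1 and 1 hemocyte marker without Hop.CA replicate 2. The lower muscle count became 2 or 3 without control replicates 1, 3 or 4 or Hop.CA replicates 1 or 3, and 12 without Hop.CA replicate 2. The lower disc count became 0 without Hop.CA replicate 3, 1 without Hop.CA replicate 2 and 2 without control replicate 3. The lower ring gland count became 1 without control replicate 2 and 0 without control replicates 3 or 4 or any 1 Hop.CA library. The part of these tissues in the level of the 5 genes was not tested. In whole tissue, fewer cells of a type and less RNA per cell cannot be told apart.

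The 5 genes span 15230 bases, from 16305225 to 16320454 on 3L (dm6), and fall into a group of 3 and a group of 2. CG13043 (FBgn0036600) lies at 16305225 to 16305870 on the minus strand, CG13063 (FBgn0036601) at 16306600 to 16307205 on the plus strand, and CG13042 (FBgn0036602) at 16307846 to 16308480 on the minus strand. CG13041 (FBgn0036605) lies at 16318954 to 16319526 on the minus strand and CG13060 (FBgn0036606) at 16319856 to 16320454 on the plus strand. CG13043 and CG13063 are divergent neighbours, with 729 bases between their start sites, and so are CG13041 and CG13060, with 329 bases between theirs. The run also holds 5 other rows, namely CR32160, CG13062, Nplp3 (a gene of a neuropeptide-like precursor), CR45663 and CR45664. None of those 5 had enough reads to be tested. CR32160 had 44 reads over the 7 libraries, CG13062 had 22, Nplp3 had 8, and CR45663 and CR45664 had 0 in every library.

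Both members of the first divergent pair were abundant. CG13043 stood at 781, 855, 958 and 951 CPM in control replicates 1 to 4 and at 367, 386 and 146 CPM in Hop.CA replicates 1 to 3. CG13063 stood at 600, 681, 854 and 856 CPM in the controls and at 238, 250 and 89.7 CPM in Hop.CA. For both genes every Hop.CA library lay below every control library, and Hop.CA replicate 3 was the lowest of all 7. The mean of CG13043 went from 886 ± 84.3 to 299 ± 133 CPM (SD, n = 4 and 3), which is 2.96-fold lower and a log2 fold change of -1.57 ± 0.325 (SE). That of CG13063 went from 748 ± 128 to 193 ± 89.5 CPM, which is 3.88-fold lower and a log2 fold change of -1.96 ± 0.365. Within Hop.CA the highest library exceeded the lowest by 2.65-fold for CG13043 and 2.79-fold for CG13063, against 1.23-fold and 1.43-fold within the controls. On this ratio scale the pair was more spread within Hop.CA than within the controls.

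The other 3 genes were scarce. CG13042 stood at 8.91, 5.13, 14.2 and 13.7 CPM in the controls (10.5 ± 4.28) and at 1.53, 1.55 and 1.21 CPM in Hop.CA (1.43 ± 0.190). It was 7.32-fold lower in Hop.CA (log2 fold change -2.87 ± 0.388). Here the spread lay on the control side, where the highest library exceeded the lowest by 2.76-fold, while the 3 Hop.CA libraries lay within 1.28-fold of each other.

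CG13041 stood at 2.58, 1.97, 2.80 and 3.89 CPM in the controls (2.81 ± 0.802) and at 0.159, 0.373 and 0.152 CPM in Hop.CA (0.228 ± 0.126), a log2 fold change of -3.59 ± 0.429. These levels rest on 216 reads over the 4 controls and 13 reads over the 3 Hop.CA libraries. Scaled by library size, the control reads were 12.4 times the Hop.CA reads (95% exact conditional interval 7.11 to 23.7, covering counting error only). In Hop.CA replicates 1 and 3 the gene was at 3 reads, so that its level there is at the edge of what this depth resolves.

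CG13060 was the scarcest, at 0.644, 0.720, 0.654 and 1.07 CPM in the controls and at 0, 0.107 and 0 CPM in Hop.CA. These values come from 12, 15, 11 and 22 reads in the controls and from 0, 2 and 0 reads in Hop.CA. A count of 0 allows up to 3 reads, or 0.159 CPM in Hop.CA replicate 1 and 0.152 CPM in replicate 3. The ratio of the pooled reads, 60 against 2, was 22.4 after scaling, with a counting interval of 5.94 to 189. The fitted log2 fold change of -4.24 ± 0.760 depends on the prior count at such low reads, and it became -6.91 when Hop.CA replicate 2, the only one with reads, was left out.

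**Figure D1:**
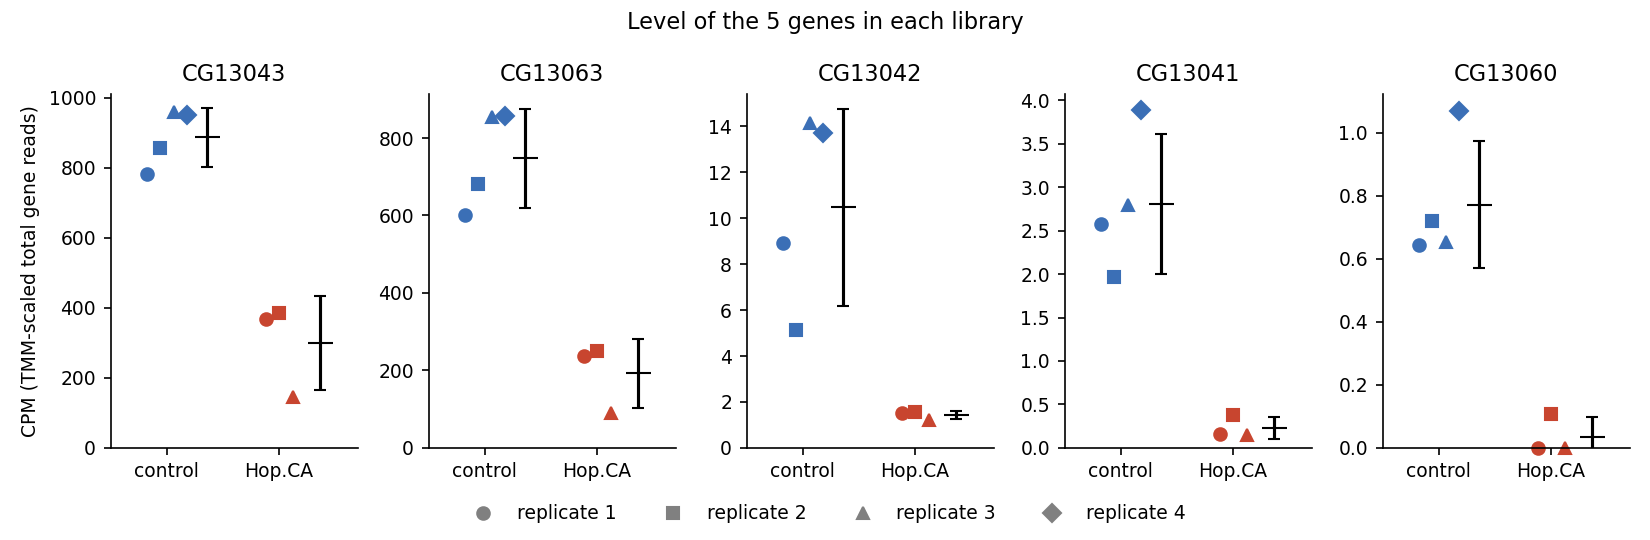
Level of each of the 5 genes, in CPM on a linear axis from 0 with its own scale per gene, for 4 control libraries (blue) and 3 Hop.CA libraries (red). The marker shape gives the replicate number and the black bars give the mean ± SD, the lower arm for CG13060 in Hop.CA ending at the axis. In all 5 genes the red points lie below the blue ones, by the widest margin relative to the control mean for CG13041 and CG13060.

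All 5 genes passed the filter on low counts, CG13041 and CG13060 through their control reads alone, since both had fewer than 10 reads in every Hop.CA library. In all 5 every Hop.CA library was below every control library. Such a pattern held for 20% of the 9457 genes tested, and 15.1% of them were called lower and 16.4% higher at an adjusted p under 0.05. The genes were chosen by this contrast, so nothing is read from their count. The lowest control exceeded the highest Hop.CA library by 2.03-fold for CG13043, 2.40-fold for CG13063, 3.32-fold for CG13042, 5.27-fold for CG13041 and 6.04-fold for CG13060. The margin and the fold change both grew in chromosomal order, which is also the order of falling abundance, so position and level cannot be told apart for these 5 genes. Their median log2 fold change was -2.87, beside -0.01 over all tested genes. Together they took 0.135% to 0.186% of all gene reads in the controls and 0.0239% to 0.0616% in Hop.CA, nearly all of it from CG13043 and CG13063.

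Per base of exon, CG13043 and CG13063 were level with each other in the controls. The authors' RPKM (reads scaled by exon length and by library size) was 1368 ± 150 for CG13043 and 1370 ± 251 for CG13063 (SD, n = 4), and which of them was higher changed between control libraries. It was 18.3 ± 7.56 for CG13042, 5.46 ± 1.61 for CG13041 and 1.43 ± 0.395 for CG13060, and this order was the same in every control. In Hop.CA the RPKM was 457 ± 199, 349 ± 159, 2.48 ± 0.305, 0.435 ± 0.226 and 0.0631 ± 0.109 for CG13043, CG13063, CG13042, CG13041 and CG13060 (n = 3). The order CG13043, CG13063, CG13042, CG13041, CG13060 held in 5 libraries, whereas control replicates 3 and 4 had the first pair swapped.

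The balance within the first pair differed between the groups. The RPKM ratio of CG13043 to CG13063 in control replicates 1 to 4 was 1.10, 1.06, 0.947 and 0.937, whereas Hop.CA replicates 1 to 3 had 1.30, 1.30 and 1.37. The groups did not overlap, and the ratio was nearly the same in the 3 Hop.CA libraries although both genes were much lower in replicate 3. The ratio is built from the values that chose the genes and was given no test. For the second pair, the RPKM ratio of CG13041 to CG13060 was 4.20, 2.87, 4.49 and 3.82 in the controls and 3.68 in Hop.CA replicate 2. The other Hop.CA libraries had 0 reads for CG13060 and give no ratio. CG13063 exceeded its neighbour CG13042 by 63.2-fold to 139-fold in the controls and by 77.5-fold to 170-fold in Hop.CA, ranges that overlap.

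The tables count total gene reads and, separately, unique gene reads, and the 5 genes differed sharply between these columns. For CG13043, CG13063 and CG13042 every read was unique in every library (85082, 68308 and 875 reads over the 7 libraries). For CG13041 only 1 of 229 reads was unique, in a control library, which is 0.437% (95% Clopper-Pearson interval 0.0111% to 2.41%, counting error only). CG13060 was in between, with 46 of 62 reads unique (74.2%, 61.5% to 84.5%). By library these were 9, 9, 8 and 18 unique reads in the controls and 0, 2 and 0 in Hop.CA.

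The annotated surroundings of the genes differ in parallel. CR45663 and CR45664 cover 397 of the 573 bases of CG13041, and CR45664 covers 76 of the 599 bases of CG13060. No other row overlaps CG13043, CG13063 or CG13042. The nearest abundant neighbour, CG13044, shows the same combination, since CR45890 covers 635 of its 689 bases and 4.83% of its 131437 reads were unique (4.71% to 4.95%). How reads in overlapping genes were assigned, and whether strand was used, is not given in the sources used here, and the cause of the non-unique reads was not tested. The low unique share was present in both groups: CG13044 had 4.69% in the controls and 5.45% in Hop.CA, and CG13041 had 1 of 216 and 0 of 13 reads. The total of CG13041 thus consists almost wholly of reads that the deposited counting did not call unique, and its level is uncertain for that reason. CG13041 and CG13060 had too few unique reads to be fitted on unique reads alone, whereas the 3 fully unique genes had the same counts in both columns.

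**Figure D2:**
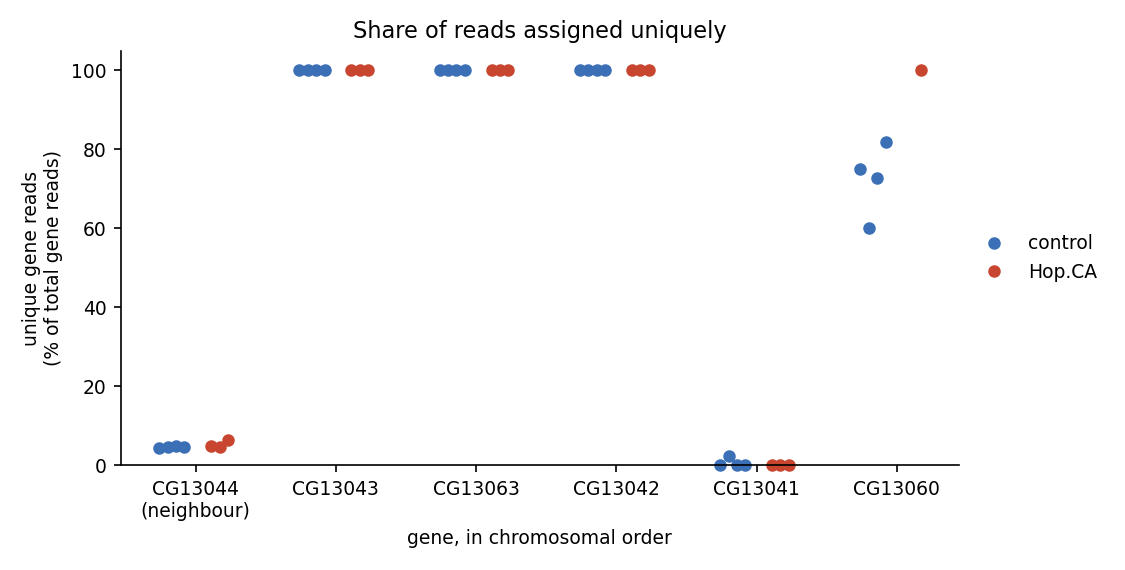
Unique gene reads as a percent of total gene reads for the 5 genes and their neighbour CG13044, with 1 point per library (blue control, red Hop.CA) and no point where a library had 0 reads. CG13043, CG13063 and CG13042 are at 100% in all 7 libraries, whereas CG13041 and CG13044 are near 0% in both groups.

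The reads of the 5 genes were exonic. Intron reads made up at most 0.192% of the reads of any of them in either group. Reads across the exon junction of CG13063 numbered 61, 66, 92 and 117 in the controls and 29, 15 and 16 in Hop.CA, which is 0.587% and 0.548% of its exon reads. By library the share was 0.546%, 0.466%, 0.643% and 0.666% in the controls and 0.646%, 0.320% and 0.902% in Hop.CA, so that the groups overlapped and Hop.CA was widely spread on few reads. CG13042 had 18 junction reads over the controls and 2 over Hop.CA, CG13041 had 1 and 0, CG13060 had 2 and 0, and CG13043 has a single exon and no junction.

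The gene models of 4 of the 5 genes are alike, and that of CG13043 differs in having a single exon. All 5 are annotated as protein coding and short, with 148 codons in CG13043, 129 in CG13063, 117 in CG13042, 124 in CG13041 and 131 in CG13060. The other 4 genes than CG13043 have 2 exons, of which the first holds only 12 coding bases, followed by an intron of 62, 64, 60 and 60 bases in CG13063, CG13042, CG13041 and CG13060. A first coding part of 12 bases is found in 117 of the 13986 protein-coding genes of the annotation (0.837%). It is found in 18 of the 48 other protein-coding genes within 50 kb (37.5%). Most genes with the feature lie elsewhere in the genome, and the 5 genes were not tested against their neighbours for it. This feature was looked up after the gene models had been seen.

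The neighbourhood was then taken as all other rows within 50 kb of the run. It holds 55 rows, of which 24 had fewer than 10 reads in the whole experiment and 23 could be tested. Of these 23, 7 were called lower and 4 higher in Hop.CA, and 12 passed in neither direction (edgeR's quasi-likelihood test, adjusted p under 0.05). Over all 9457 genes 15.1% were called lower and 16.4% higher. The median log2 fold change of the 23 was -0.68. In 5 of them every Hop.CA library lay below every control, a pattern that held for 20% of all tested genes. Before CG13043 on the chromosome, 14 genes were tested, of which 5 were lower and 0 higher. After CG13060, 9 were tested, of which 2 were lower and 4 higher. The 5 genes were picked from this neighbourhood with its values known, so they are no sample of it, and leaving out 1 library moved the count of lower neighbours between 4 and 9. The count of 7 became 4 without control replicate 1, control replicate 3, Hop.CA replicate 1 or Hop.CA replicate 2. Without control replicate 1 the 4 stood beside 1654 of 9365 genes called lower. Without Hop.CA replicate 3 the count was 9, beside 738 of 9635 genes. The count of 4 higher became 2 without Hop.CA replicate 1, beside 992 of 9645 genes called higher.

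The closest abundant neighbour is CG13044, an uncharacterised gene that ends 2046 bases before CG13043. It stood at 1178, 1379, 1623 and 1426 CPM in the controls and at 377, 387 and 492 CPM in Hop.CA. The groups did not overlap, the mean going from 1402 ± 183 to 419 ± 63.9 CPM, and the log2 fold change was -1.74 ± 0.146 (edgeR adjusted p = 0.000399). The fall of CG13044 is close in size to that of CG13043, but its libraries rank otherwise, with Hop.CA replicate 3 as the highest of the 3. The limit on unique reads given above applies to CG13044 too.

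CG4962, which ends 9677 bases before CG13043, ranked its libraries as CG13043 and CG13063 did within Hop.CA. It stood at 2104, 2244, 3234 and 3206 CPM in the controls and at 1195, 1359 and 607.5 CPM in Hop.CA, lowest in replicate 3. Its log2 fold change was -1.36 ± 0.305 (edgeR adjusted p = 0.0149), and the groups did not overlap. CG13047 (log2 -1.56 ± 0.459, adjusted p = 0.040), CG13069 (log2 -2.06 ± 0.646, adjusted p = 0.049) and CG13046 (log2 -0.77 ± 0.240, adjusted p = 0.045), all before the run, were also called lower by edgeR, but the libraries of the groups overlapped. CG13046 was named after its values were seen. Each of these 3 calls was lost without several single libraries, with adjusted p of 0.0717 to 0.138: without control replicates 1 or 3 or Hop.CA replicates 1 or 2 for all 3 genes, without control replicate 2 for CG13069, and without control replicate 4 for CG13047 and CG13046.

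The tested gene nearest to the run on the side of CG13044 was not called. This was the scarce CG43249, between CG13044 and CG13043, with 69 reads in all (log2 -0.20 ± 0.567, edgeR adjusted p = 0.818). CG4982, between CG4962 and CG13044, was not called either (log2 0.34 ± 0.397, edgeR adjusted p = 0.545). Both were named after their values were seen, and the libraries of the groups overlapped. On the other side of the run the first tested gene was higher in Hop.CA. CG13059, which starts 3217 bases after CG13060, stood at 0.429, 0.144, 1.31 and 0.729 CPM in the controls and at 2.43, 6.46 and 6.87 CPM in Hop.CA, from 8, 3, 22 and 15 reads against 46, 121 and 136 reads. Every Hop.CA library was above every control, and the log2 fold change was 3.02 ± 0.628 (edgeR adjusted p = 0.0105). The next, CG13038, was lower again, at 5.38 ± 0.463 CPM in the controls and 1.78 ± 0.188 CPM in Hop.CA (log2 -1.60 ± 0.178, edgeR adjusted p = 0.0010). CG4998 was lower by a like amount in total reads (log2 -1.57 ± 0.249, edgeR adjusted p = 0.00361). With unique reads alone it was at log2 -1.225 (edgeR adjusted p = 0.0168), while CG13038 stayed at -1.599. CR45893 overlaps CG4998, and the limit on unique reads applies here too. Farther out mRpS34, a gene of a mitochondrial ribosomal protein, Golgin104 and Tcs3 were slightly higher (log2 0.39 ± 0.090, 0.47 ± 0.099 and 0.45 ± 0.112, edgeR adjusted p = 0.0143, 0.0102 and 0.0204). The call for mRpS34 was lost without Hop.CA replicate 1 (adjusted p = 0.062), and that for Tcs3 without control replicates 3 or 4 or Hop.CA replicates 1 or 3 (adjusted p of 0.0502 to 0.077).

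Some neighbours overlapped between the groups and were not called. CG13067, at 3459, 1742, 3453 and 2319 CPM in the controls and 989, 1604 and 2534 CPM in Hop.CA, had a log2 fold change below 0 that did not pass (log2 -0.68 ± 0.369, edgeR adjusted p = 0.199). CG13068 had nearly equal means of 62.6 and 58.1 CPM, at 24.5 to 109.6 CPM in the controls and 22.1 to 111 CPM in Hop.CA (log2 -0.10, adjusted p = 0.921). Hop.CA replicate 3 was the highest Hop.CA library for CG13067 and CG13068 and the lowest for CG13043 and CG13063. Further neighbours named for eye or cuticle proteins were close to silent, with 1 read over all libraries for retinin, which encodes a corneal lens protein, 4 for Cpr72Ea, 1 for Cpr72Eb and 0 for Cpr72Ec.

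**Figure D3:**
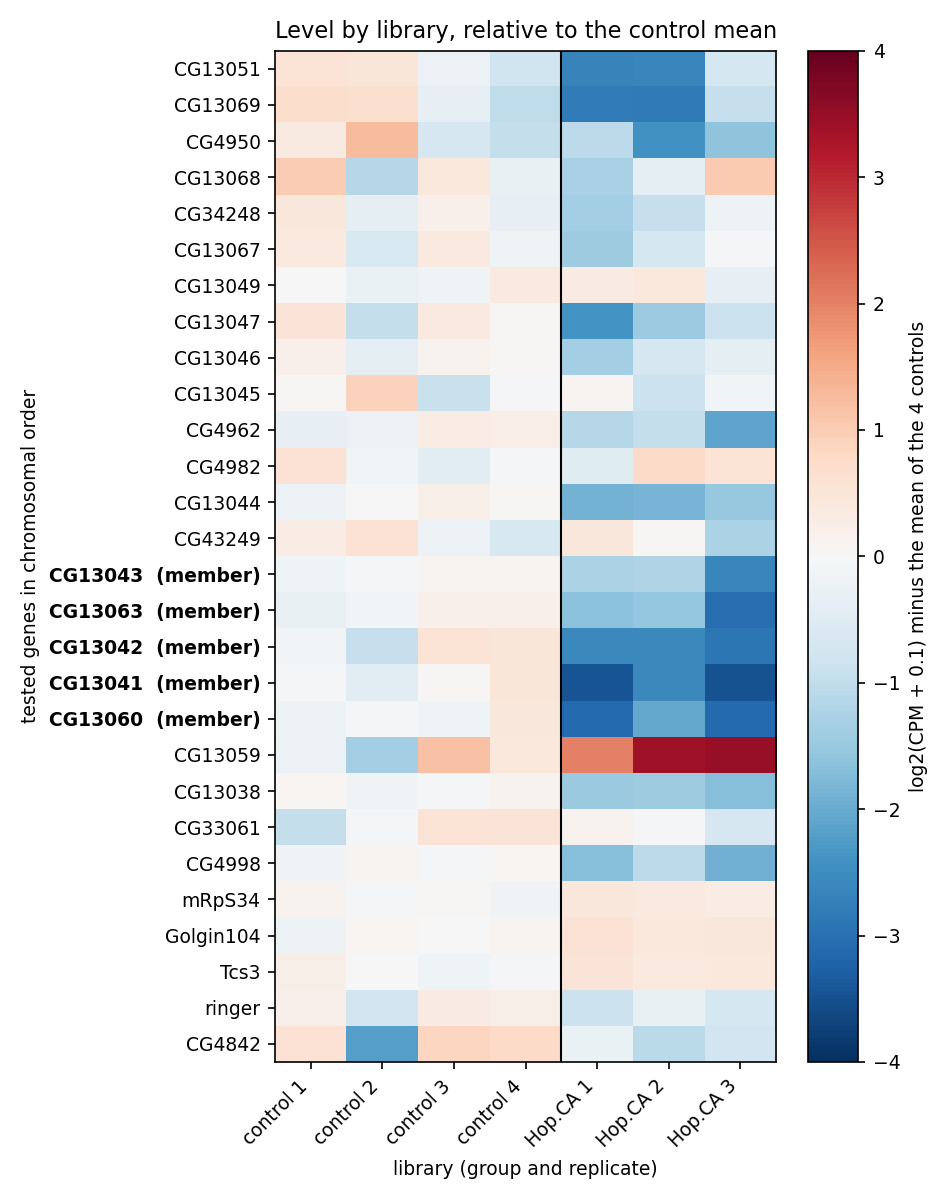
Each tested gene of the neighbourhood and the 5 genes (bold), in chromosomal order from top to bottom, with 1 column per library. Colour gives log2(CPM + 0.1) minus the mean of the 4 controls, on a scale from -4 (blue) to 4 (red). The 5 genes form a blue block in the 3 Hop.CA columns, directly followed by CG13059 in red.

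**Figure D4:**
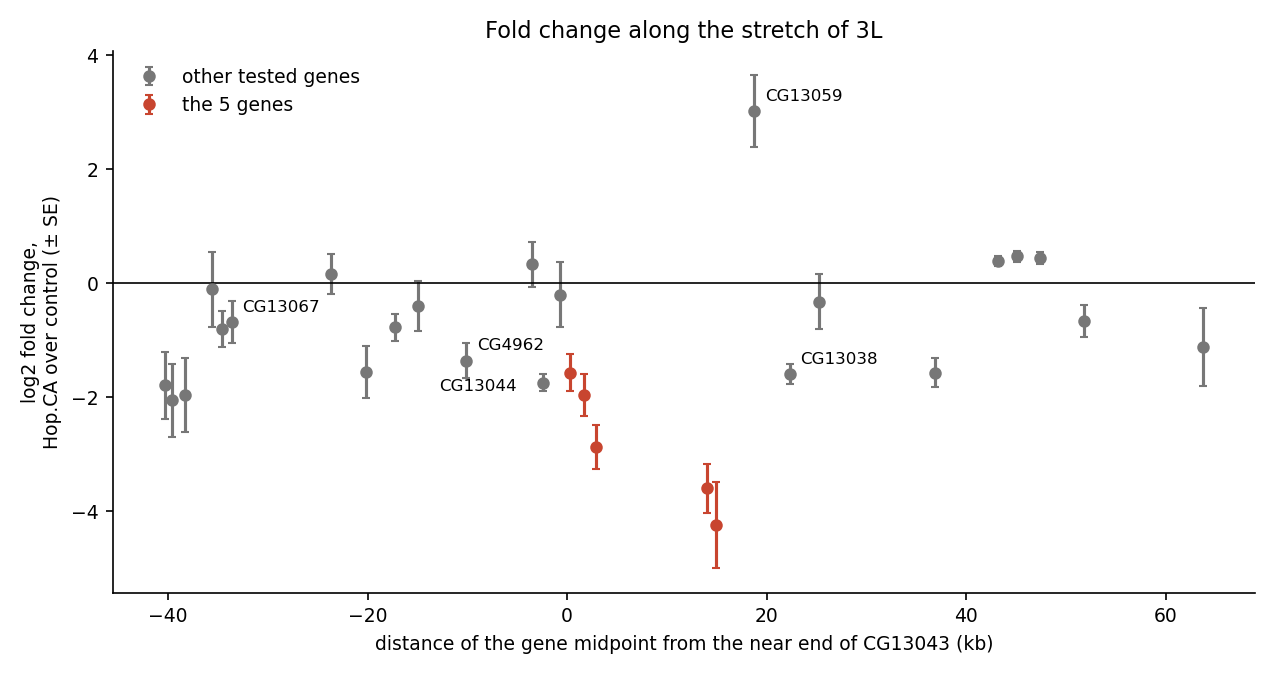
Log2 fold change of Hop.CA over control (± SE, linear axis) against the distance in kb of each gene's midpoint from the near end of CG13043, for the 5 genes (red) and the other tested genes (grey). The red points descend from -1.57 at CG13043 to -4.24 at CG13060, and CG13059 just beyond them is at 3.02.

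Genes elsewhere were ranked by how closely they followed the 5 genes from library to library. Log2 CPM was centred within each group, so that the group difference plays no part, and correlated over the 7 libraries with the mean centred profile of the 5 genes. In control replicates 1 to 4 this log2 profile was -0.18, -0.32, 0.14 and 0.35, and Hop.CA replicates 1 to 3 had 0.07, 0.48 and -0.55. The largest contrast in it is between Hop.CA replicates 2 and 3. CG13041 and CG13060, with at most 7 and 2 reads in any Hop.CA library, contribute to that contrast from values near the floor. The 8 closest genes were Sox102F (Pearson r = 0.990), a gene of a Sox family transcription factor, Ccp84Ab (0.987), CG7120 (0.983), Ccp84Aa (0.982), Cyp4ac3 (0.978), CG9626 (0.977), CG9119 (0.977) and Ccp84Ad (0.976). Ccp84Aa, Ccp84Ab and Ccp84Ad are cuticle protein genes of a cluster on 3R, and none of the 8 is within 50 kb of the run. With the group means kept in, r was 0.971 for Sox102F and 0.972 for Ccp84Ab, but -0.077 for CG7120 and -0.715 for CG9119, whose levels did not differ in the same direction. The ranking depends on the scarce genes. With a profile of CG13043, CG13063 and CG13042 alone, chosen after seeing the data, 1 of the 8 genes, Ccp84Aa, stayed among the 8 closest (r = 0.964), and Sox102F had r = 0.95 and Ccp84Ab 0.902.

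These correlations are descriptions over 7 libraries that share depth and dissection. With 9452 other genes compared and few libraries, 61 genes had r above 0.9. The 5 genes' own r with the profile, to which each contributes, was 0.841 for CG13043, 0.884 for CG13063, 0.684 for CG13042, 0.866 for CG13041 and 0.760 for CG13060. Among the neighbours CG4962 had 0.948 (0.981 with the profile of the 3 genes), and CG13044 had -0.254 (-0.279), a weak correlation over 7 libraries.

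Other genes of cuticle and molting were counted beside them, to be read against the 15.1% of all tested genes called lower and 16.4% called higher. Of 48 tested genes named Cpr, which encode cuticle proteins with the Rebers and Riddiford chitin-binding motif, 13 were lower and 2 higher, with a median log2 fold change of -0.67. DESeq2 fitted every row with any reads, which leaves out only 4 of the 70 Cpr rows. It called 21 of that wider set lower, beside 1684 of the 13419 genes it fitted. In edgeR 20 had an unadjusted p under 0.05, for which the share over all genes is not given. The lowest were Cpr66Cb (log2 -2.80), Cpr65Au (-2.71) and Cpr49Ah (-1.96). The 2 higher genes, Cpr47Ea and Cpr47Eb (log2 1.27 and 0.74), were named after their values were seen, and 1 was called without control replicates 1 or 4 or any 1 Hop.CA library. Of 15 tested larval cuticle protein genes (Lcp), 5 were lower and 1 higher, with a median of -0.72. Lcp65Ad rose (log2 2.55 ± 0.305), whereas Lcp2 and Lcp1 fell (log2 -1.30 ± 0.266 and -1.30 ± 0.352). The lower Lcp count became 2 or 3 without control replicates 1, 3 or 4 or Hop.CA replicates 1 or 3. Of 10 tested Tweedle genes 1 was lower, TwdlT (log2 -2.26), and 0 were higher, with 2 and 0 in limma-voom or without Hop.CA replicate 1. At an unadjusted p under 0.05 edgeR had 2 lower and 1 higher, and the share over all genes at that threshold is not given. DESeq2 also had 2 lower and 1 higher, but it fitted all of the 26 Tweedle rows except 2 without reads.

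Of 14 tested genes of chitin synthesis and modification 2 were lower (Cda5 and reb, log2 -0.92 and -0.65) and 2 higher (serp and verm), close to the shares over all tested genes, with a median of -0.28. Without control replicate 1 the lower count was 5, and without Hop.CA replicate 1 or 3 it was 1. Of 13 tested genes of the ecdysone response, the hormone cascade that times molting, 4 were lower and 1, usp, higher (log2 0.24, named after its value was seen), with a median of -0.47. Those named by the largest change were Eip78C, Hr38 and Eip74EF (log2 -1.09, -0.83 and -0.62), and leaving out 1 library gave 1 to 4 lower genes. Without control replicates 3 or 4 or any 1 of the Hop.CA libraries the count was 1, and it was 2 without control replicate 2. The call for usp was lost without any 1 library other than control replicate 2. These lists were chosen with earlier results of these libraries known, and their medians are set only beside that of all genes, -0.01.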

How the data were processed

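Tracheal RNA of 7 libraries was sequenced with a stranded poly(A) kit, as the labels' protocols state. There is 1 deposited table per library. Per the file headers the authors gave raw counts (total, unique, exon, exon-exon and intron reads per gene), RPKM and TPM. RPKM was used for levels per length, and the deposited TPM was not used. The submitters' processing notes list cutadapt 1.8.1 and the build dm6. Which aligner and counter ran, and with what strand setting, is not given in the sources used here. 1 row without a name was left out.

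The members and all lists were chosen with earlier results of these data known. Groups came from the labels, and control and Hop.CA were compared in all 7 libraries without covariates. Total gene reads were scaled by TMM, filtered with filterByExpr (minimum count 10, minimum total 15) and fitted with edgeR 4.0.16 (robust quasi-likelihood test, Benjamini-Hochberg over 9457 genes, threshold 0.05) in R 4.3.3. CPM uses the TMM-scaled library sizes. DESeq2 1.42.0, limma-voom (limma 3.58.1) and other scalings, filters, read columns, left-out libraries and window sizes of 20 and 100 kb were alternatives. Scripts were tested on simulated data. p-values measure the spread between these libraries, and no 2 libraries agreed within sampling noise. Depth of 16795748 to 20455268 reads puts the limit of a 0 count at 0.144 to 0.178 CPM per library.

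Named are the 5 genes, hop, up to 6 lowest and 6 highest of the called neighbours, the 8 genes of the closest profile, and up to 3 called genes of each list with the largest change, or the 3 most abundant where none was called. The gene Cpr itself, a cytochrome P450 reductase, is not among the Cpr cuticle genes. Gene models came from the Ensembl annotation of the same assembly. Positions were compared with a RefSeq gene reference, in which 14013 of 14109 rows matched by symbol had the same start and end. The Ensembl models were not compared in this way. No sequence was used.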

Additional observations from a re-analysis of the deposited data

How the results depend on the processing

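No result changed direction. Over 16 to 18 alternatives each, the log2 fold change ran from -1.79 to -1.23 for CG13043, -2.19 to -1.61 for CG13063, -3.15 to -2.60 for CG13042, -4.12 to -3.37 for CG13041 and -6.91 to -3.71 for CG13060. CG13060 reached -6.91 without Hop.CA replicate 2. The median of the 5 was -1.96 with unique reads, where 3 of them could be fitted, and -3.10 to -2.70 with 1 library left out. CG13044, CG13038 and CG4998 were called lower under all 19 alternatives (largest adjusted p 0.013, 0.0323 and 0.0381).

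The 2978 genes called in all became 1573 without control replicate 2 and Hop.CA replicate 1 together, 1312 at an adjusted p under 0.01, and 1676 to 3407 with 1 library left out (1829 without Hop.CA replicate 1, 1676 without Hop.CA replicate 3). Lower neighbours numbered 4 of 44 with no filter, beside 1271 of 13419 genes, and 3 of 23 at 0.01, beside 548 of 9457 genes. With 1 library left out they numbered 4 to 9, while 738 to 1654 of all genes were called lower. Higher neighbours numbered 1 without control replicate 2 and Hop.CA replicate 1 together, beside 838 of 9565 genes. With 1 library left out they numbered 2 to 4, while 938 to 1753 of all genes were called higher. At 0.01 they numbered 0, beside 764 of 9457 genes. They numbered 1 within 20 kb and 7 within 100 kb, where 6 and 9 were lower, and the numbers tested there are not given. At an unadjusted p under 0.05 edgeR had 11 lower and 4 higher neighbours, and the share over all genes at that threshold is not given. At an adjusted p under 0.05 DESeq2 had 10 and 4 of 44 neighbours fitted, beside 1684 and 1614 of 13419 genes. With limma-voom 7 and 4 of 23 neighbours were called, beside 1370 and 1572 of 9457 genes. The cause of these shifts was not tested, beyond fewer libraries or a wider window where these define the alternative.

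Same-numbered libraries had correlations of -0.223, -0.432 and -0.069 after group means were removed. Removing the means ties these few values together, so they cannot show whether same-numbered libraries share a batch. What the numbers stand for beyond biological replicates is not given. With the numbers as a replicate block 938 genes were called, 441 lower and 497 higher of 9457 tested. Of 23 neighbours tested, 3 were lower and 0 higher. At an unadjusted p under 0.05 they were 9 and 4, and the share over all genes at that threshold is not given.

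Depth limits CG13041 and CG13060 most. A comparison with relatives by protein sequence was not run.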

Other observations

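Genes whose first coding part has 12 bases, as in 4 of the 5 genes, were looked at outside the neighbourhood as a set picked after the gene models had been seen. The set has 92 rows, of which 63 were tested, 14 were called lower and 2 higher in Hop.CA, which is 22.2% and 3.17% beside 15.1% and 16.4% of all tested genes. Their median log2 fold change was -0.51. Of these, 20 tested genes carry the names Cpr, Lcp or Twdl, and 8 were lower and 0 higher. Most of the 14 lower calls are thus among genes that the cuticle lists above already count. The rest were Acp65Aa, Ccp84Ab, CG13138, CG8160, CG14095 and CG13678, of which Acp65Aa and Ccp84Ab are cuticle protein genes too. The feature and the cuticle genes therefore cannot be told apart in these counts. Lcp4, a larval cuticle protein gene, went from 11250 to 4897 CPM (log2 -1.20 ± 0.208, adjusted p = 0.00531, edgeR), and Acp65Aa, an adult cuticle protein gene, from 16.5 to 3.14 CPM (log2 -2.39 ± 0.382, adjusted p = 0.0043, edgeR). Among the genes with other names CG13138 was called lower (adjusted p = 0.013, edgeR), with 12, 20, 33 and 13 reads in the controls and 3, 0 and 0 in Hop.CA, too few there for a fold change. The counts are a description of the set, and whether the gene model has a part in them was not tested.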
